A study of Bos grunniens and Bos grunniens x Bos taurus with 6 samples.

Results

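Collagens are the triple-helical proteins of the extracellular matrix, and the family described here was every gene symbol of the form COL, number, A, number that had at least 20 UMIs (unique molecular identifiers, single RNA molecules counted) over 6 single-cell RNA libraries of testis. Of 26961 features in the files, 38 were collagen symbols and 34 of these reached the minimum. The members closest to it were COL23A1 with 26 UMIs and COL9A2 with 35, and the closest symbol below it was COL2A1 with 13. COL1A1, COL6A3, COL7A1, COL18A1, COL20A1 and COL27A1 were not analysed here.

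The libraries came from yak (Bos grunniens) testis and were made with droplets from 10x Genomics. There were 2 of prepubertal yak at 6 months (replicates 1 and 2), 2 of adolescent yak at 18 months (replicates 3 and 4), 1 of a sexually mature yak at 4 years (replicate 5) and 1 of a sexually mature cattle-yak, the cross of yak with cattle whose males are known to be sterile. No treatment or engineered allele is named for any group, and the age of the cattle-yak is given only as after sexual maturity. All tissue had been frozen and then digested with collagenase IV, hyaluronidase and trypsin, and the cells were held in culture medium before loading. Whether libraries of 1 age are separate animals is not in the labels, and the p-values cover the spread among these libraries alone.

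Each collagen chain is made in the endoplasmic reticulum, joined with others into a triple helix and secreted. Fibrillar collagens build the tensile fibres of interstitial tissue, network-forming type IV collagens build the sheet of every basement membrane, and the other subfamilies decorate fibres, anchor sheets or sit in the cell membrane. In the testis the seminiferous tubule stands on a basement membrane laid down by Sertoli cells inside and peritubular myoid cells outside, with interstitial fibroblasts and vessels around it. The type IV chains assemble in fixed sets, of which COL4A1 with COL4A2 is found in most tissues, while COL4A3 with COL4A4 and COL4A5, and COL4A5 with COL4A6, are restricted to some.

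Cells were assigned to classes by raw UMIs of marker genes, none of them a collagen. A cell entered a class when it held UMIs of at least 2 different markers of that class and at least 3 times as many as of any other list. The lists were DCN, LUM, PDGFRA and OGN for stroma (interstitial fibroblasts), ACTA2, MYH11, TAGLN, RGS5, CNN1 and NOTCH3 for mural cells (the myoid layer of the tubule and the smooth muscle of vessels), PECAM1, CDH5, VWF, CLDN5, EMCN and TIE1 for endothelium, and FSHR, SOX9, INHA, CITED1 and DHH for Sertoli cells, the nurse cells of the tubule. Every one of these markers had its highest CPM (the UMIs of a gene per 1000000 UMIs of the class) in its own class. The gate used the same markers and so favours this, which makes it no independent check of the classes. Immune cells, gated in the same way, served as cells that should lack collagens and so gave the level of free RNA. The 3642 to 7396 cells kept per library held 122 to 1229 stroma cells at 6 and 18 months, 107 to 207 mural, 83 to 140 endothelial and 103 to 941 Sertoli cells. The mature yak had 13 stroma, 184 mural, 413 endothelial and 24 Sertoli cells, and the cattle-yak had 267, 475, 168 and 61. Sums of fewer than 50 cells were left out of every test, so stroma and Sertoli cells of the mature yak were not compared.

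Among the Sertoli sums that of the cattle-yak stood apart. Of the 5 markers, INHA was at 1412 CPM in its 61 cells, against 4250.2 to 12337 CPM in the 4 younger sums. FSHR was at 27.6 CPM, from only 4 UMIs, against 53.8 to 136 CPM. DHH was at 0, but at 3.64 to 6.09 CPM in the younger sums it was too rare to tell apart in a sum of 145147 UMIs. SOX9, at 393 CPM, lay within the younger range of 193 to 769 CPM, and CITED1, at 819.9 CPM, lay above all 4 younger sums (59.9 to 228 CPM). Collagens were 0.00689% of its UMIs (10 UMIs), which lay within the range of immune cells. No collagen call in Sertoli cells was lost when the cattle-yak library was left out. Any pair of libraries shared between 5 and 16 cell barcodes.

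Collagen UMIs were richest in stroma. They made up 0.199% and 0.152% of stroma UMIs at 6 months, 0.435% and 0.223% at 18 months, with 0.543% in the cattle-yak. The ages did not overlap, but with 2 libraries against 2 an exact permutation test cannot give less than 0.333. In mural cells the share ran from 0.0682% to 0.129% over 6 libraries, in endothelial cells from 0.0421% to 0.135%, and in Sertoli cells at 6 and 18 months from 0.0247% to 0.0762%. Immune cells held 0.00235% to 0.00926%, so every sum of the 4 classes used here except the cattle-yak Sertoli sum lay above the free RNA level. Of the 34 members, 17 had their highest level in stroma both in UMIs summed over libraries and as a mean over libraries, 4 in endothelium, 4 in mural and 4 in Sertoli cells, when these 4 classes were ranked. The 4 of Sertoli cells (COL9A1, COL9A2, COL11A2 and COL19A1) had only 1 to 7 UMIs each over the 4 classes. COL9A1, COL11A2 and COL19A1 were higher still in germ cells, while COL9A2 was level, at 0.542 CPM in germ and 0.514 in Sertoli cells. Those of mural cells (COL8A1, COL8A2, COL22A1 and COL25A1) had 3 to 36 UMIs, and COL8A2 and COL22A1 were higher in germ cells too. The other 5 (COL4A3, COL4A4, COL6A5, COL23A1 and COL26A1) changed class with the way of averaging.

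**Figure D1:**
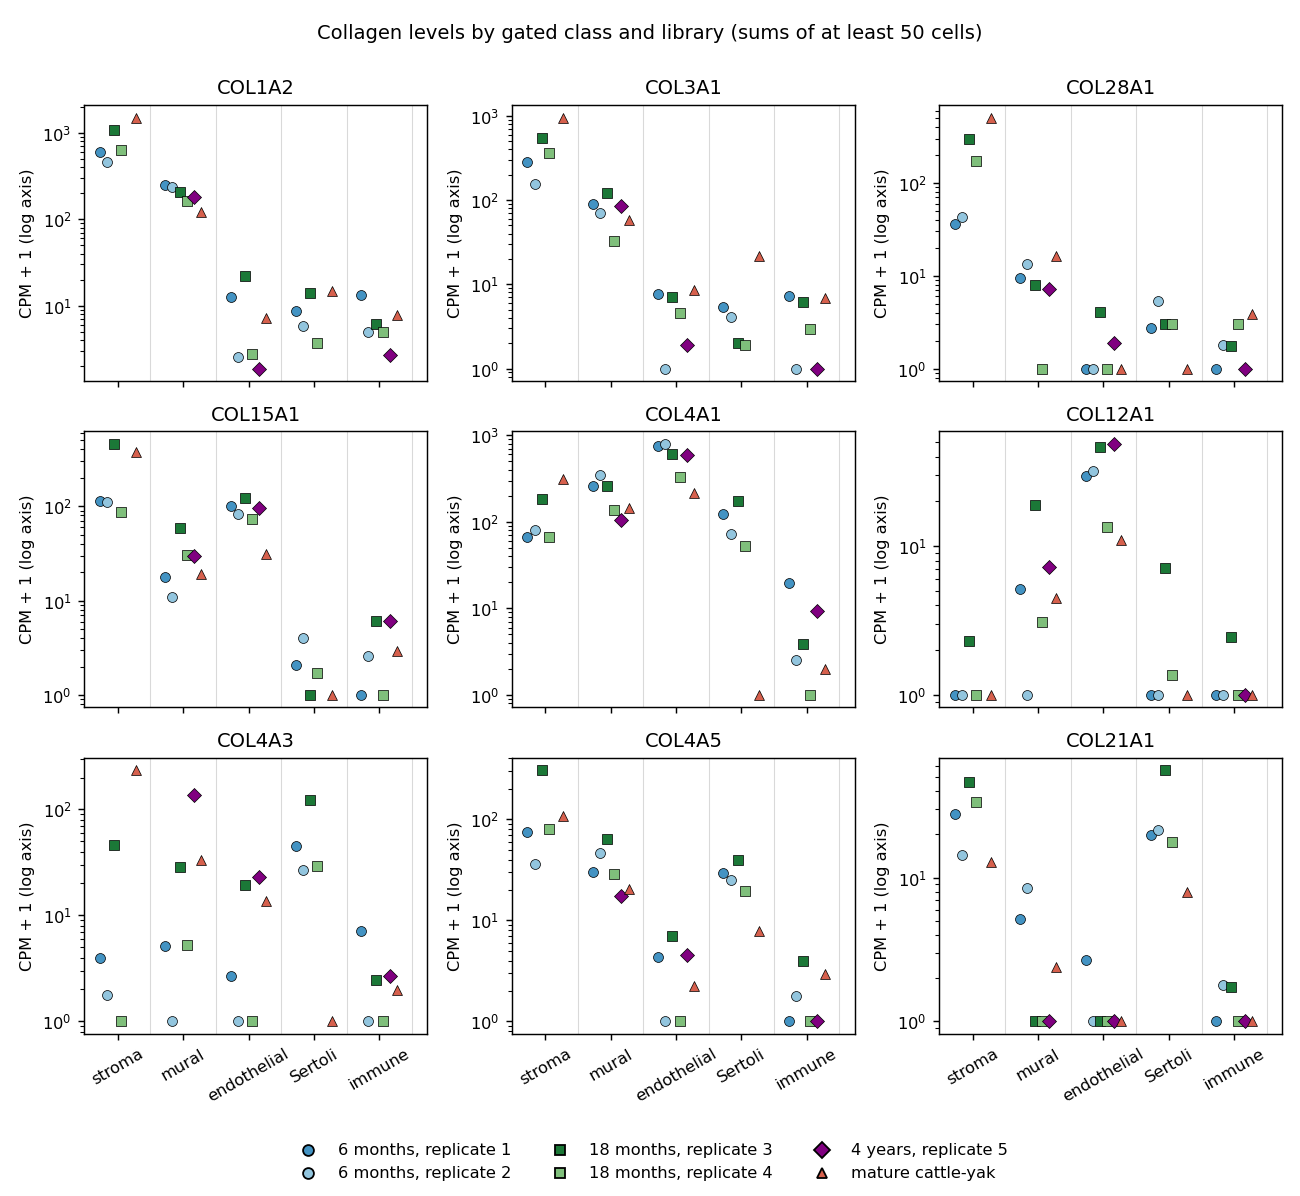
Level of 9 collagens (CPM plus 1, log axis) in each gated class, with 1 symbol per library and only sums of at least 50 cells. COL1A2, COL3A1 and COL28A1 were highest in stroma, COL4A1 and COL12A1 in endothelium, and the 4 Sertoli sums of 6 and 18 months carried COL4A3 between 26.1 and 123 CPM.

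To test how the classes differed, the 22 sums of library and class were fitted together with library as a block, and each class was set against the mean of the other 3. Of the 34 members, 18 passed the filter on low counts. The others were too rare to be tested (COL5A3, COL11A1, COL11A2, COL24A1, COL6A5, COL6A6, COL8A1, COL8A2, COL9A1, COL9A2, COL13A1, COL19A1, COL22A1, COL23A1, COL25A1 and COL26A1). In stroma 13 of the 18 were higher and 2 lower at a Benjamini-Hochberg adjusted p below 0.05 in edgeR's quasi-likelihood test, against 23.6% of 6318 genes higher and 20% lower (43.6% in either direction). In mural cells 9 were higher and 0 lower (18.2% of all genes in either direction, 12.6% higher and 5.57% lower). In endothelium 4 were higher and 12 lower (43.6% of all genes in either direction, 24.1% higher and 19.5% lower), and in Sertoli cells 5 were higher and 10 lower (58.8%, with 27% higher and 31.9% lower). The median log2 difference of the 18 was 3.11 in stroma, 1.06 in mural, -3.55 in endothelial and -1.25 in Sertoli cells, where that of all genes tested was 0.03, -0.03, 0.01 and -0.11.

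**Figure D2:**
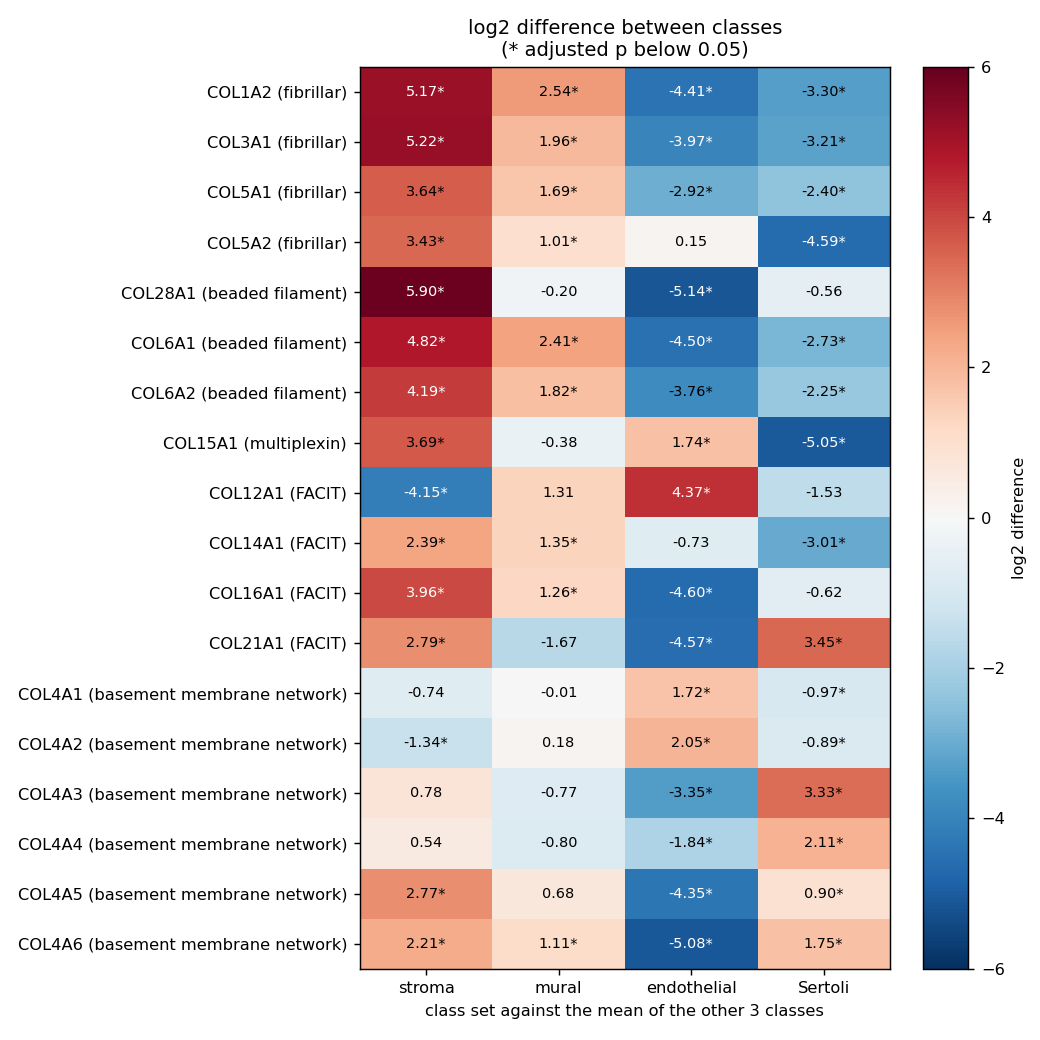
The log2 difference of each tested collagen between a class and the mean of the other 3 classes (22 sums), with genes in rows grouped by subfamily and classes in columns. Fibrillar and beaded filament chains were higher in stroma (COL1A2 at 5.17), and endothelium stood out by COL12A1 (4.37), COL4A1, COL4A2 and COL15A1. COL21A1 and COL4A3 to COL4A6 were called higher in Sertoli cells, although the summed levels of COL21A1, COL4A5 and COL4A6 were higher in stroma.

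All 4 tested fibrillar chains were higher in stroma and in mural cells and lower in Sertoli cells. COL1A2, the second chain of type I collagen, the main fibre protein of connective tissue, was at 591 and 458 CPM in stroma at 6 months, 1079.9 and 628 at 18 months, with 1496 in the cattle-yak. In mural cells it was between 119 and 247 CPM in all 6 libraries, and in endothelial cells between 0.883 and 21.2. The stroma and mural sums thus did not overlap with each other or with endothelium. Its log2 difference in stroma was 5.17 ± 0.27 (SE), with an adjusted p of 4.89e-13 in edgeR's quasi-likelihood test.

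COL3A1, the chain of type III collagen that forms fine reticular fibres, was at 284 and 156 CPM in stroma at 6 months, 539.9 and 360 at 18 months, with 957 in the cattle-yak. Its mural sums lay between 31.7 and 121 CPM, below all stroma sums. COL5A1, which with COL5A2 makes the type V collagen at the core of thicker fibres, was at 229 to 356 CPM in the 5 stroma sums. COL5A1 was the collagen with the highest summed level in immune cells, at 7.08 CPM, where COL1A2 was at 4.86 CPM. In endothelium COL5A1 (2.65 to 30.1 CPM) was lower by edgeR's test with a log2 difference of -2.92, whereas COL5A2 (3.54 to 18.2 CPM) had a log2 difference of 0.15 ± 0.27 (SE) and did not pass.

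The beaded filament chains COL6A1 and COL6A2, which assemble type VI microfibrils around cells, followed the fibrillar chains. COL6A1 was at 111 to 259 CPM in the 5 stroma sums, at 37.3 to 79.9 in the 6 mural sums and at 0 to 3.04 CPM in the 5 Sertoli sums. The log2 difference of COL6A1 was 4.82 ± 0.25 (SE) in stroma and 2.41 ± 0.29 in mural cells. COL6A2 was lower in Sertoli cells as well, but not with the stricter gate (-2.24) or the stricter cell filter (-1.47). COL28A1, a type VI relative with the same kind of von Willebrand factor domains, differed from them in mural cells. Its log2 difference was 5.90 ± 0.40 (SE, adjusted p = 4.11e-11 in edgeR's quasi-likelihood test) in stroma but -0.20 ± 1.68 in mural cells, where it had 0 to 15.3 CPM and did not pass. COL28A1 had 557 UMIs in stroma against 37 in mural, 31 in Sertoli and 2 in endothelial cells. Its passing the filter on low counts thus rested mainly on stroma, where it was high.

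COL15A1, a multiplexin that links fibres to basement membranes and is known from vessels, was the only tested member called higher in both stroma and endothelium. It was at 85.1 to 457 CPM in stroma and at 30.1 to 121 CPM in endothelium. In mural cells COL15A1 was at 9.99 to 57.9 CPM, and in the 5 Sertoli sums at 0 to 3.04 CPM. The log2 difference of COL15A1 was 3.69 ± 0.33 (SE) in stroma and 1.74 ± 0.34 in endothelium, against -5.05 ± 0.53 in Sertoli cells.

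The FACIT collagens, which sit on the surface of fibres, split between classes. COL12A1 had 28.4 and 31.0 CPM in endothelium at 6 months, 45.5 and 12.4 at 18 months, 47.7 in the mature yak and 10.0 in the cattle-yak. In the 5 stroma sums COL12A1 had 1 UMI in all, in replicate 3. All 6 endothelial sums were above all stroma sums. The log2 difference of COL12A1 was 4.37 ± 0.43 (SE, adjusted p = 1.07e-08 in edgeR's quasi-likelihood test) in endothelium and -4.15 ± 0.91 in stroma. It had 121 UMIs in endothelium against 23 in mural and 8 in Sertoli cells, so its passing the filter on low counts rested mainly on endothelium. Without replicate 3 or without replicate 5, only 17 members passed that filter, and 3 in place of 4 were higher in endothelium. COL14A1 and COL16A1 were higher in stroma (2.39 and 3.96) and mural cells (1.35 and 1.26), although in mural cells 4 of the 9 calls depended on the setting. With doublets kept, 6 of the 9 remained, and COL16A1 (log2 difference 0.94), COL5A2 (0.88) and COL4A6 (1.03) did not pass. With the stricter cell filter 6 also remained, and COL16A1 (0.47), COL4A6 (0.88) and COL3A1 (1.28) did not pass. COL16A1 was also lost with the stricter gate (1.30) and without replicate 3 (1.11), and COL5A2 with the looser gate (0.85) and without any 1 of replicates 1 to 4 (0.83 to 1.09).

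COL21A1, a FACIT known from vessel walls, was shared by stroma and Sertoli cells. It was at 11.8 to 45.3 CPM in the 5 stroma sums and at 16.8 to 54.8 CPM in Sertoli cells at 6 and 18 months. Mural cells held 0 to 7.50 CPM of COL21A1 and endothelium 0 to 1.67 CPM, so neither overlapped with stroma or with these Sertoli sums. By edgeR's test its log2 difference was 3.45 ± 0.39 (SE) in Sertoli cells and 2.79 ± 0.44 in stroma.

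The 6 chains of type IV collagen, the scaffold of basement membranes, were all tested, and each pair had its own class pattern. COL4A1 was at 751 and 793 CPM in endothelium at 6 months, 604 and 326 at 18 months, 592 in the mature yak and 214 in the cattle-yak. In mural cells it was at 104 to 342 CPM, in stroma at 65.4 to 309 and in Sertoli cells at 6 and 18 months at 51.8 to 175 CPM. The endothelial sums thus lay above the mural sum of the same library in all 6 libraries, while the ranges overlapped. COL4A1 and COL4A2 had log2 differences of 1.72 ± 0.34 and 2.05 ± 0.32 (SE) in endothelium, with adjusted p-values of 0.000214 and 1.04e-05 in edgeR's quasi-likelihood test. Their lower level in Sertoli cells (-0.97 and -0.89) lost its call without replicate 2, 3, 4 or 5 (-0.66 to -1.06) and with a stricter gate or cell filter, and for COL4A2 also with up to 40% mitochondrial UMIs (-0.77). The lower level of COL4A2 in stroma (-1.34) lost its call without replicate 1, 2 or 3 (-1.21 and nearer to 0), with the stricter gate (-0.70) and with the stricter cell filter (-1.55).

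COL4A3 was at 44.1 and 26.1 CPM in Sertoli cells at 6 months and 123 and 28.1 CPM at 18 months. COL4A4 was at 101 and 76.0 CPM in the same sums at 6 months and at 192 and 67.6 CPM at 18 months. In the Sertoli sum of the cattle-yak COL4A1 to COL4A4 were all at 0, which allows up to 20.7 CPM. That limit lies below each of the 4 younger sums for COL4A1, COL4A3 and COL4A4, but not for COL4A2, which was at 17.9 to 72.1 CPM. The log2 difference in Sertoli cells was 3.33 ± 0.60 (SE) for COL4A3 and 2.11 ± 0.49 for COL4A4, with adjusted p-values of 5.47e-05 and 0.000831 in edgeR's quasi-likelihood test.

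Outside Sertoli cells the COL4A3 and COL4A4 pair varied strongly between libraries. In stroma COL4A3 was at 2.97 and 0.781 CPM at 6 months, 45.3 and 0 at 18 months, with 233 in the cattle-yak. COL4A4 followed with 26.3 and 5.46, 179 and 13.1, and 315 CPM. In mural cells both were highest in the mature yak, with 135 CPM of COL4A3 and 189 of COL4A4, while the other 5 libraries had 0 to 32.6 and 2.50 to 75.6 CPM. Sertoli marker UMIs (5 markers summed) were at 202, 240, 145, 124 and 115 CPM in the stroma sums in the same order, and in mural cells lowest in the mature yak, at 41.5 CPM of a range up to 260 CPM. Leydig marker UMIs (CYP11A1 and STAR) in mural cells were highest in the mature yak, at 108 CPM against 0 to 27.8 CPM elsewhere. The part of either list in these levels was not tested.

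COL4A5 and COL4A6 were higher in stroma (2.77 ± 0.32 and 2.21 ± 0.35, SE) and in Sertoli cells (0.90 ± 0.35 and 1.75 ± 0.35) by edgeR's test. COL4A5 was at 35.1 to 304 CPM in stroma, 16.6 to 63.4 in mural cells and 18.6 to 38.6 in Sertoli cells at 6 and 18 months. With libraries summed it was at 23.9 CPM in Sertoli cells, 31.9 in mural cells and 2.21 in endothelium. The Sertoli difference was thus taken against a mean that included the low endothelial sums. COL4A6 was at 29.8 CPM in Sertoli cells, 49.8 in stroma, 29.0 in mural cells and 0.984 in endothelium. The Sertoli call of COL4A5 was lost without TMM scaling (log2 difference 0.32), by DESeq2 (0.82), with the stricter gate (0.92) and without replicate 1 or 2 (0.75 and 0.72). The stroma call of COL4A6 was lost with the stricter gate (1.17). In mural cells COL4A6 passed at 1.11, but not by DESeq2 (1.14), without replicate 2, 3 or 4 or the cattle-yak (0.80 to 1.21), nor in the 6 and 18 month libraries alone (1.01). In endothelium both were near free RNA, with log2 differences of -4.35 and -5.08.

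The 6 type IV members formed pairs that lie next to each other in the RefSeq annotation of yak assembly Bosgru_T2T1.0, and COL6A2 with COL6A1, COL3A1 with COL5A2 and COL19A1 with COL9A1 were neighbours there too. Over the 22 sums the log2 levels (CPM plus 1) of COL4A1 and COL4A2 had a Pearson correlation of 0.960, those of COL4A3 and COL4A4 of 0.885 and those of COL4A5 and COL4A6 of 0.889. COL6A1 and COL6A2 reached 0.949. COL1A2 and COL3A1, which are not neighbours, reached 0.964, and the neighbours COL3A1 and COL5A2 reached 0.736. The lowest of the 8 pairs computed were COL6A5 and COL6A6, which are not neighbours, at 0.365, and the neighbours COL9A1 and COL19A1 at 0.158, with 6 UMIs and 1 UMI in the 4 classes. The sums of 1 library share its depth and those of 1 class its cell type, so these values describe a pattern over classes and libraries.

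The balance within a pair differed between pairs, and for some pairs it differed between libraries of 1 class as well. With libraries summed, COL4A1 gave 78.3% of the COL4A1 and COL4A2 UMIs in stroma, 73.3% in mural cells, 72.5% in endothelium and 75.6% in Sertoli cells. By library COL4A1 gave 62.6% to 76.7% in endothelium and 70.8% to 77.8% in Sertoli cells at 6 and 18 months. COL4A3 gave 23.5% to 34.7% of its pair in the 4 classes with libraries summed, but in stroma alone it gave 10.2% in replicate 1 (exact 95% interval 3.82 to 20.8) and 42.5% in the cattle-yak (35.3 to 49.9), which do not overlap. COL4A5 gave 67.6% of its pair in stroma (exact 95% interval 64.0 to 71.1) but 52.4% in mural cells (45.7 to 59.0) and 44.6% in Sertoli cells (41.0 to 48.3). These summed values do not hold library by library. In the 5 stroma sums COL4A5 gave 46.2% to 80% of its pair, and in the 4 younger Sertoli sums 38.1% to 61.8%. In replicate 2 the order was the other way, with 54.2% in stroma, 78.3% in mural and 61.8% in Sertoli cells, so the spread between libraries is as large as the difference between classes. COL3A1 gave 88.1% of the COL3A1 and COL5A2 UMIs in stroma, 80.2% in mural and 85.7% in Sertoli cells, but 23.4% in endothelium (13.8 to 35.7, 64 UMIs). In Sertoli cells both genes (2.64 and 0.441 CPM) lay below their immune level (3.04 and 1.21 CPM). COL3A1 in endothelium (3.69 CPM) lay near it, and the part of free RNA in the Sertoli and endothelial shares was not tested. In the 5 libraries with both sums COL3A1 gave 78.6% to 91.4% in stroma and 0% to 57.1% in endothelium, where a library had 4 to 19 UMIs of the pair. Intervals and floors cover counting error only, and a share depends on how well each gene is counted as well as on its level.

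**Figure D3:**
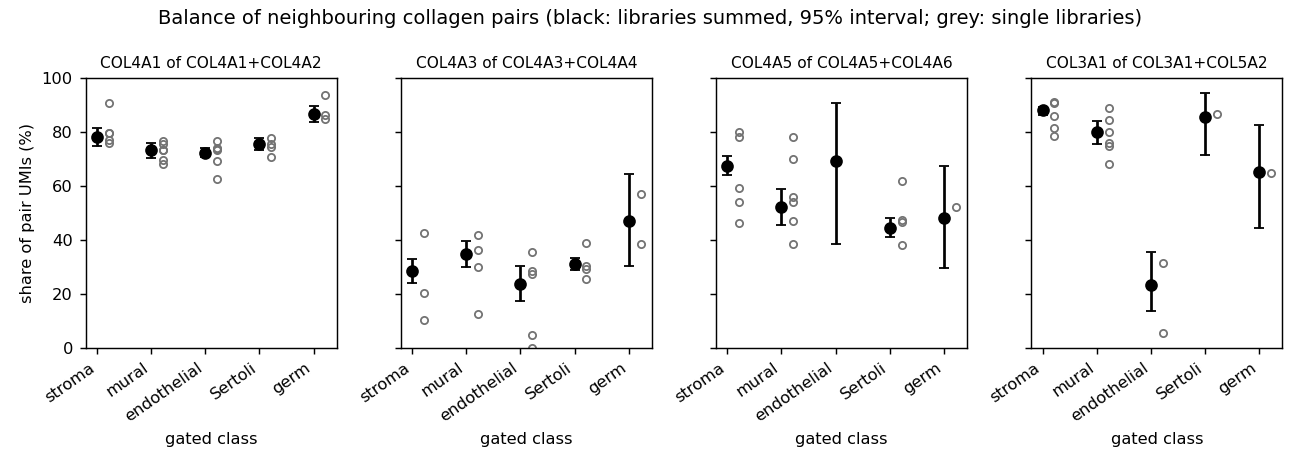
Share of the UMIs of a neighbouring collagen pair that came from the first gene named (percent, libraries summed, exact 95% intervals) in each gated class, with germ cells added; black points are libraries summed and grey circles single libraries with at least 50 cells and 10 UMIs of the pair. COL4A1 held 72.5% to 78.3% in the 4 somatic classes and COL3A1 23.4% in endothelium, while single stroma libraries spread from 46.2% to 80% for COL4A5. The level of COL3A1 in endothelium and in Sertoli cells was near that of immune cells.

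Genes that act on collagens were listed by function. Their counts are to be read against the shares of all genes called in each class, which were 23.6% higher and 20% lower in stroma, 12.6% and 5.57% in mural cells, 24.1% and 19.5% in endothelium and 27% and 31.9% in Sertoli cells. Of 16 genes of chain synthesis and folding in the files, 9 were tested. In stroma 3 of the 9 were higher and 0 lower (FKBP10, a chaperone for procollagen, with a log2 difference of 1.19, P4HA2, a prolyl hydroxylase subunit, with 0.94 and P3H1 with 0.81). In Sertoli cells 6 of 9 were higher and 1 lower, among them the lysyl hydroxylase PLOD2 (2.32), P4HA2 (1.59) and P4HB (1.17). In endothelium 1 was higher and 6 lower, with PLOD2 at -4.20 and P4HA2 at -2.16. In mural cells 0 were higher and 1 lower. All calls are from edgeR's quasi-likelihood test.

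Of the processing genes, PCOLCE, which enhances the trimming of fibrillar procollagens, was higher in stroma (3.48) and lower in endothelium (-2.75) and Sertoli cells (-1.30). PXDN, which cross-links type IV collagen, was higher in Sertoli cells (1.87) and lower in stroma (-0.85) and mural cells (-1.11). Of the 13 genes of this list 4 were tested. Of the 3 tested receptors all 3 were higher in endothelium, the collagen-binding integrin chains ITGA2 (4.79) and ITGA1 (2.90) and the receptor kinase DDR2 (1.51), and all 3 were lower in Sertoli cells. DDR2 was also higher in stroma (2.04), where ITGA2 was lower (-2.30), and ITGA1 in mural cells (2.78).

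Of the 10 tested partners of basement membranes, 7 were higher and 1 lower in stroma, where LAMC3 (4.53), LAMA2 (4.31), NID1 (4.30) and LAMB1 (2.71) had the smallest adjusted p-values in edgeR's quasi-likelihood test. In Sertoli cells 2 were higher, LAMA1 (2.92) and SPARC (0.79), and 8 lower. Endothelium had 3 higher (LAMA3 at 3.05, LAMA4 at 2.19 and SPARC at 0.70) and 3 lower, and mural cells 3 higher (LAMC3, LAMB2 and LAMA4) and 0 lower. Of 5 tested genes of collagen breakdown, the gelatinase MMP2 (3.78), CTSK (1.34) and the inhibitor TIMP1 (0.84) were higher in stroma and TIMP3 lower (-1.26). The inhibitor TIMP2 was higher in Sertoli cells (4.79) and lower in mural (-1.86) and endothelial cells (-2.33).

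The second question was how collagens changed between 6 and 18 months within a class. In stroma 1 of 18 tested members passed and was higher (1.3% of 6438 genes in either direction, 1.06% higher and 0.249% lower). COL28A1 was at 34.7 and 42.2 CPM at 6 months, at 295 and 170 CPM at 18 months and at 507 CPM in the cattle-yak. The ages did not overlap, and the 13 stroma cells of the mature yak had 7 UMIs of it. Its log2 difference was 2.26 ± 0.41 (SE, n = 2 and 2), with an adjusted p of 0.0107 in edgeR's quasi-likelihood test. Without replicate 1 the adjusted p was 0.321 and without replicate 2 it was 0.911, at log2 differences of 2.00 and 2.39.

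The other stroma collagens had mostly positive differences that did not pass. Of the 18, 17 were above 0, where 52.8% of all genes tested were, and their median was 0.66 against 0.07 over all genes. COL4A4 had a log2 difference of 2.38 ± 0.64 (SE), which turned to -0.51 without replicate 3. COL5A1 was the exception, at -0.41 ± 0.43. The change in sum was not the same in every library, since replicate 3 had 0.435% of collagen UMIs and replicate 4, from 122 cells, 0.223%.

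Other features of the stroma sums moved with age. LUM, a gate marker, was at 157 and 77.3 CPM at 6 months, 19.4 and 13.1 at 18 months, with 8.84 in the cattle-yak, while PDGFRA, another, was at 123 and 44.5, 298 and 393, and 468 CPM. Mitochondrial UMIs were 5.49% and 5.46% of the stroma sums at 6 months and 13.5% and 13.0% at 18 months. Mural marker UMIs (6 markers summed) in stroma were at 121 and 237 CPM, 388 and 177, and 669 CPM. COL28A1 itself was at 0 to 15.3 CPM in mural cells, and the part of the other values in the result was not tested. Since stroma was gated as a whole, a change of level per cell and a change in the kinds of stroma cell cannot be told apart.

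In mural cells 0 of 12 tested collagens passed (1.39% of all genes, 0.996% higher and 0.393% lower) by edgeR's quasi-likelihood test. In endothelium it was 0 of 5 (0.306%, with 0.183% higher and 0.122% lower) and in Sertoli cells 0 of 11 (0.214%, with 0.0755% higher and 0.138% lower) by edgeR's quasi-likelihood test, and DESeq2 also called 0 in each. At an unadjusted p below 0.05 edgeR had 4 of 12, 0 of 5 and 2 of 11 collagens. Over all genes it had 379 of 3814, 320 of 4907 and 1261 of 7948, so the Sertoli count was near that of all genes. Among the collagens were COL4A4 in mural cells (2.08 ± 0.76, SE, adjusted p = 0.216 in edgeR) and COL5A1 there (-1.59 ± 0.49, adjusted p = 0.102). COL3A1 in Sertoli cells was at -2.65 ± 0.70 with an adjusted p of 0.132 in edgeR's test. With libraries summed its level there, 2.64 CPM, was no higher than in immune cells (3.04 CPM). In data simulated at these depths the test found between 0.167% and 0.5% of 2-fold changes in the 5 age comparisons and between 30.5% and 72.8% of 4-fold changes, so changes of 2-fold were not detectable. Of the other lists, PCOLCE was lower at 18 months in mural cells (-2.36 ± 0.53, adjusted p = 0.0105) and PCOLCE2 in Sertoli cells (-5.95 ± 0.82, adjusted p = 0.0307), by edgeR's quasi-likelihood test. The PCOLCE call was lost by library totals (-2.20), by DESeq2 (-2.37) and without replicate 2, 3 or 4 (-1.66, -2.09 and -2.69). The PCOLCE2 call was lost with the stricter gate (-5.12, adjusted p = 0.0572 in edgeR) and with doublets kept (-5.12, adjusted p = 0.0668). No other partner gene passed within a class.

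Whether the change with age differed between classes was tested in 1 fit over the 16 sums of the 4 younger libraries, added after the data were seen. Of 18 tested collagens 5 passed edgeR's quasi-likelihood F test (COL28A1, COL4A4, COL4A5, COL3A1 and COL4A3), where 3.83% of 6165 genes did. For all 5 the change was more positive in stroma than in Sertoli cells. The stroma levels of COL4A3 and COL4A4 at 18 months were high in replicate 3 alone. In Sertoli cells COL3A1 (2.64 CPM with libraries summed) and COL28A1 (2.28 CPM) lay near their immune level (3.04 and 1.21 CPM). Mitochondrial UMIs also differed by age in the Sertoli sums, with 1.76% and 1.97% in the younger libraries against 14.8% and 9.79% in the older, and their part in this difference was not tested. Leaving out replicate 1, 2 or 3 left 3, 0 and 2 of them called.

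**Figure D4:**
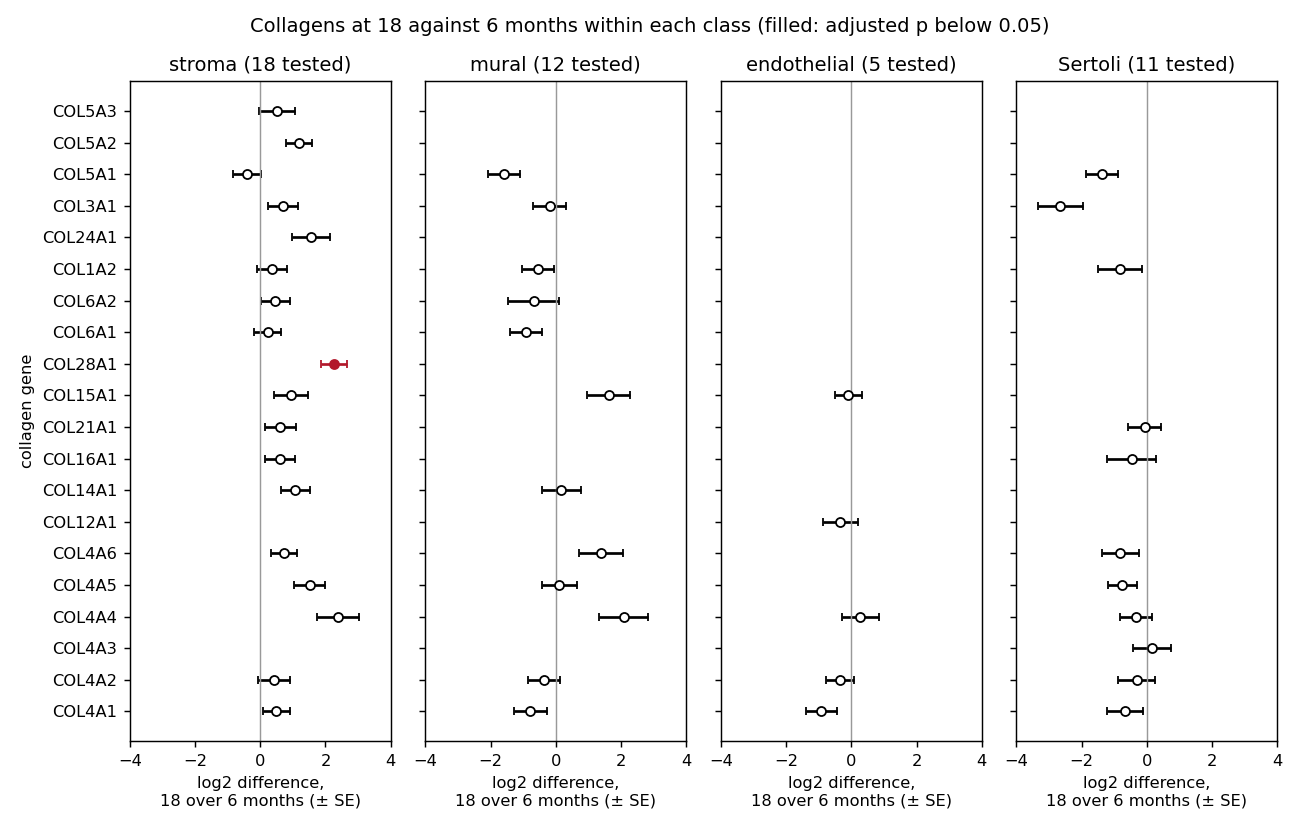
The log2 difference of each tested collagen between 18 and 6 months (point) with its SE (bar) within stroma, mural, endothelial and Sertoli cells, filled where the adjusted p was below 0.05. Only COL28A1 in stroma, at 2.26, passed, and 17 of 18 stroma values lay to the right of 0.

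In sums over all kept cells, where fewer cells of a type and less RNA per cell cannot be told apart, 27 members were tested. Of these 3 were lower at 18 months and 0 higher (2.61% of 13553 genes in either direction, 1.89% higher and 0.723% lower). COL6A6, a type VI chain, was at 4.83 and 3.44 CPM at 6 months and 0.867 and 0.21 at 18 months, with a log2 difference of -4.06 ± 0.59 (SE, adjusted p = 0.0370). COL5A1 was at 143 and 91.3 against 49.2 and 29.9 CPM (-2.65 ± 0.44, adjusted p = 0.0424) and COL6A1 at 53.8 and 37.7 against 26.8 and 17.6 (-2.11 ± 0.37, adjusted p = 0.0459), all by edgeR's quasi-likelihood test. TMM scaling moved all genes by 1.03 (log2) here. With library totals in its place COL12A1, COL9A1 and COL22A1 were higher, COL6A6 and COL5A1 were lower and COL6A1 was at -1.04 without passing. The 3 calls were all lost without replicate 1, 2 or 3. The share of stroma cells was 16.6% and 10.4% in the younger libraries and 12.0% and 3.05% in the older, and COL5A1 and COL6A1 did not pass in stroma itself (-0.41 and 0.23). PCOLCE2, BMP1, LAMC3, FAP, SERPINH1, NID1 and FKBP10 of the partner lists were also lower in whole libraries, with log2 differences of -2.02 to -3.45. They were 2 of 15 tested genes of synthesis and folding, 2 of 11 of processing, 1 of 10 of breakdown and 2 of 11 basement membrane partners, and 0 of 4 receptors passed. All 7 lost their call without replicate 2 and without replicate 3, and 6 of them, all but PCOLCE2, without replicate 1 and by library totals.

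The mature cattle-yak and the mature yak were 1 library each, so the comparison has no replicate check and no p-value. A collagen was counted when it had at least 50 UMIs in 1 of them, differed at least 2-fold in CPM and had a 95% interval of the ratio that excluded 1. The library with more UMIs of a gene could meet that minimum alone, which favours members that are high in it. In whole libraries 14 of 19 eligible members were higher in the cattle-yak and 2 lower (14% and 37.1% of 10725 genes, 51.1% in either direction). COL28A1 was at 51.0 CPM against 3.54, a ratio of 14.4 (10.7 to 19.8), COL3A1 at 104 against 13.7 and COL1A2 at 150 against 22.1. Stroma cells were 7.33% of the cattle-yak cells and 0.285% of those of the yak, and for these genes that difference cannot be told apart from one in level. COL22A1, a FACIT, was lower in the cattle-yak, at 1.16 against 32.8 CPM, and so was COL12A1, at 3.34 against 8.54. Of the 454 UMIs of COL22A1 in the mature yak 320 lay in germ cells, which were 16.8% of its cells and 1.04% of those of the cattle-yak, so for COL22A1 too cell numbers and level cannot be told apart.

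Within endothelial cells all 5 eligible members were lower in the cattle-yak (10.9% of 2777 genes lower, 2.81% higher, 13.7% in either direction). COL4A4, COL15A1 and COL12A1 reached 50 UMIs only in the mature yak, whose endothelial sum was larger (1132577 against 797956 UMIs). For them eligibility itself favoured a lower value in the cattle-yak. With a minimum of 20 UMIs, 6 of 7 eligible members were lower and 0 higher. The larger sum could still meet that minimum alone, and the share of all genes at it was not determined. COL4A1 was at 214 CPM against 592 in the mature yak, a ratio of 0.362 (0.304 to 0.428). COL4A2 was at 65.2 against 207 (0.314, 0.228 to 0.426), COL15A1 at 30.1 against 95.4 (0.315, 0.194 to 0.494), COL12A1 at 10.0 against 47.7 (0.210, 0.0864 to 0.445) and COL4A4 at 22.6 against 55.6 (0.406, 0.226 to 0.694). The cattle-yak also lay below all 5 yak libraries for COL4A1, COL4A2, COL15A1 and COL12A1, while for COL4A4 it lay within their range. Mural marker UMIs in these endothelial sums were at 163 CPM in the cattle-yak and 83.9 in the yak. Of the 6 endothelial markers 5 were also lower in the cattle-yak, EMCN at 595 against 799 CPM, CDH5 at 251 against 267, VWF at 112 against 150.1, TIE1 at 37.6 against 49.4 and CLDN5 at 28.8 against 67.1, while PECAM1 was higher, at 498 against 412 CPM. The part of these markers in the difference was not tested.

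Within mural cells 0 of 8 eligible members were higher in the cattle-yak and 2 lower (18.4% of 2599 genes in either direction, 6.81% higher and 11.6% lower). These were COL4A3, at 32.6 against 135 CPM (ratio 0.242, 0.163 to 0.357), and COL4A4, at 75.6 against 189 (0.401, 0.301 to 0.535). Both cattle-yak values lay above the 4 younger yak libraries, and those of the mature yak lay higher still. With 1 mature library of each kind, neither can be named as the one that departs. COL1A2 was at 119 against 178 CPM, a ratio of 0.669 (0.514 to 0.877), below the size asked for. In stroma the cattle-yak could be set only beside the younger yak. Of 21 members with at least 20 UMIs in these 5 sums, 9 had their highest value in the cattle-yak, where 19.2% of 8293 features did (COL1A2, COL3A1, COL28A1, COL6A1, COL14A1, COL4A1, COL4A2, COL4A3 and COL4A4). Another 4 (19%) had their lowest value there, which was near the 22.9% of all features (COL4A6, COL6A6, COL21A1 and COL24A1). Of these, COL24A1 was at 2.95 CPM against a lowest younger value of 3.12, COL21A1 at 11.8 against 13.3 and COL4A6 at 26.5 against 29.7. COL6A6 was at 0 against 5.18 CPM. The other 8, among them COL5A1, COL5A2, COL6A2, COL15A1, COL16A1 and COL4A5, lay within the younger range or level with its lowest value.

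**Figure D5:**
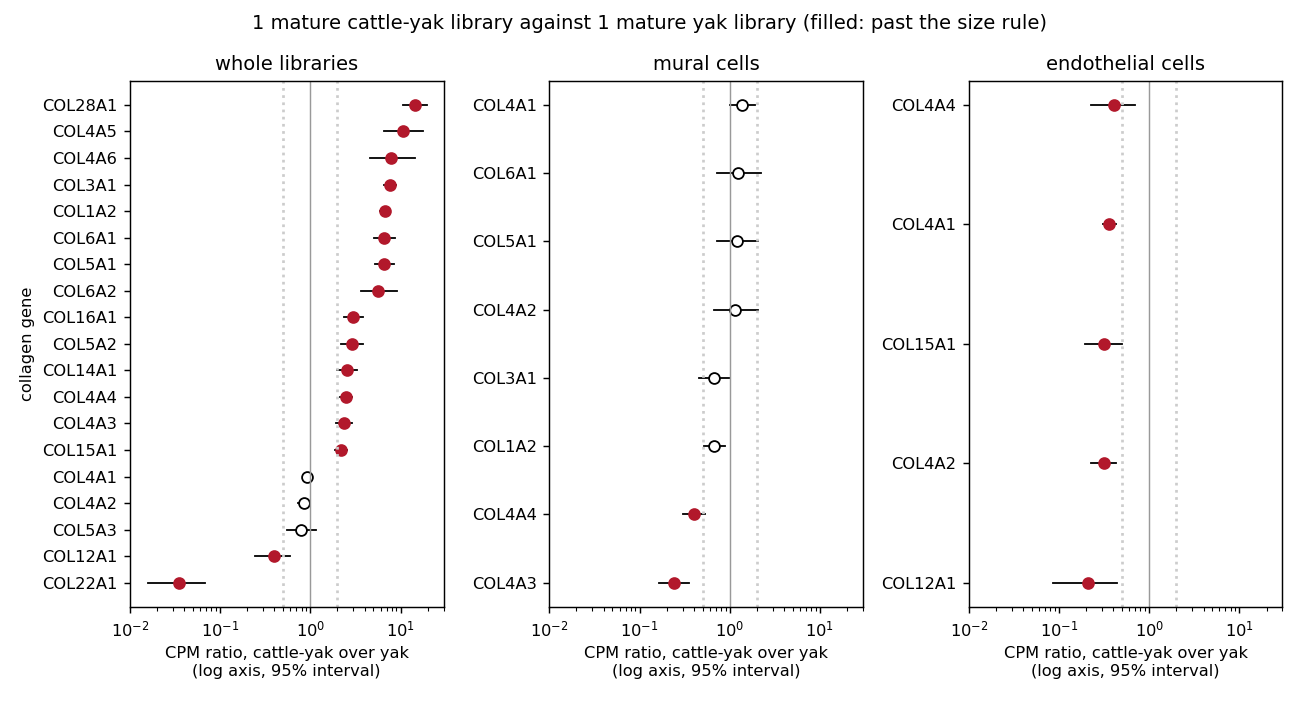
Ratio of CPM in the cattle-yak to the mature yak (log axis, 95% interval) for each eligible collagen in whole libraries, mural cells and endothelial cells, filled where it met the size rule. In whole libraries 14 of 19 lay above 1 by the rule (COL28A1 at 14.4), whereas all 5 in endothelium lay below, from 0.210 to 0.406.

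The rare members are given as values only. COL13A1, a membrane-spanning collagen, was highest in endothelium, with 57.7 CPM in replicate 3 (19 UMIs) and 1.67 to 11.5 CPM in the other 5 libraries. COL8A1, a short-chain collagen of vessel walls, was at 4.15 to 11.0 CPM in the 6 mural sums, with 26 UMIs in all, and at 0 or 1 UMI in every stroma and endothelial sum. COL5A3, the third chain of type V collagen, was at 6.55 to 31.1 CPM in stroma and 3.10 to 26.5 in endothelium. COL24A1, a fibrillar chain known from bone, was at 2.95 to 20.7 CPM in the 5 stroma sums. COL6A5 had 26 UMIs in stroma, all of them at 6 months, and COL6A6 had 34. The remaining rare members had at most 36 UMIs each over the 4 classes.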

How the data were processed

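Whole-number UMI counts per gene and barcode were deposited by the authors, made with Cell Ranger (5.0.0 per the file headers, 2.1.1 per the submitters' processing notes) and not normalised. No build is given in the sources used here. Totals ran from 9575446 UMIs (cattle-yak) to 24762829 (replicate 3), with medians of 1467 to 2074 UMIs per kept cell.

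Barcodes needed 300 genes or more and no more than 20% of UMIs from mitochondria. Doublets were removed by Scrublet rank (0.8% for each 1000 barcodes, with an expected rate of 0.06), since Scrublet's own threshold marked at most 1 barcode in 4 libraries. Counts were summed per library and gated class. Symbols of 33 of 34 members matched RefSeq (Bosgru_T2T1.0). No sequence was used here.

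Sums were tested with edgeR 4.0.16 (R 4.3.3; quasi-likelihood, TMM, filterByExpr), with p-values adjusted by Benjamini-Hochberg over all genes tested, and the SE was taken from the F statistic. DESeq2 1.42.0, library totals, no filter, other gates, other cell filters and each library left out were alternatives. On simulated data the class comparisons recovered 69.3% to 77.5% of 2-fold changes. Intervals are exact (Poisson or Clopper-Pearson, 95%).

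The members and the lists of roles, markers and partner genes were chosen with earlier results of these data known. Named were all called collagens, the 6 with most UMIs in each class, those past the size rule between the mature libraries, and at most 4 called genes per partner list and comparison by adjusted p. Other genes named, the age-by-class test, the pair shares and the rare members were added after values were seen.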

Additional observations from a re-analysis of the deposited data

Results flagged for a closer look

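The change between 6 and 18 months differed between the 4 classes for 5 of 18 tested collagens, by a test of class and age together that was added after the data were seen (edgeR's quasi-likelihood F test over 16 sums with library as a block, in which 3.83% of 6165 genes passed). COL28A1 had an adjusted p of 0.00532, with a change 3.90 lower (log2) in mural and 3.17 lower in Sertoli cells than in stroma. COL4A4 had an adjusted p of 0.00672 and a change 2.64 lower in Sertoli cells than in stroma. COL4A5 (adjusted p = 0.0223), COL3A1 (0.0311) and COL4A3 (0.0373) also passed edgeR's test, with changes 2.04, 3.00 and 2.86 lower in Sertoli cells than in stroma. With libraries summed, COL3A1 was at 2.64 CPM in Sertoli cells against 3.04 in immune cells, and COL28A1 at 2.28 against 1.21. The Sertoli side of COL3A1 and COL28A1 was thus near free RNA. In stroma COL4A3 and COL4A4 were high at 18 months in replicate 3 alone (45.3 and 179 CPM). Replicate 4 lay below the values at 6 months for COL4A3 and within them for COL4A4. Each of the 5 was higher at 18 months in stroma relative to Sertoli cells, and 0 passed when replicate 2 was left out.

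Several collagens were at their highest level in germ cells, which belonged to none of the comparisons. They were gated by ZBTB16, SYCP1, SYCP3, DMC1, ACRV1, SPACA1 and SPACA4, and only replicates 3, 4 and 5 had 50 such cells (165, 74 and 767). Over all libraries COL22A1 was at 40.1 CPM (444 UMIs) in germ cells and at 0.218 to 2.39 CPM in the 4 somatic classes. In germ cells COL22A1 was at 21.0 CPM in replicate 3, 13.6 in replicate 4 and 67.7 in the mature yak, against 0.405 CPM in immune cells. COL11A1 was at 5.60 CPM, of which 54 of 62 UMIs came from replicate 3. COL8A2 was at 3.43 CPM, COL9A1 at 3.07 and COL19A1 at 1.99. COL26A1 was at 2.89 CPM, and 30 of its 32 UMIs came from the mature yak. The median germ cell held 28006 UMIs in replicate 3, 16652 in replicate 4 and 2627 in the mature yak, and the part of free RNA in the low values was not tested.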

How the results depend on the processing

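Counts of collagens called between classes stayed within 1.5 times under all alternatives run (with a library left out, 13 to 16 in stroma, 6 to 9 in mural, 15 or 16 in endothelial and 12 to 15 in Sertoli cells), and of 816 values of single called genes under these alternatives 771 kept their call, 45 lost it and 0 reversed. The 816 values leave out cases in which a called gene was not tested or had no adjusted p under an alternative. Age counts rest on single libraries and settings, and the cause was not tested. In whole libraries 3 calls became 5 by library totals, 10 without the filter, 9 by DESeq2, 9 with the stricter cell filter, 1 with up to 40% mitochondrial UMIs and 0 to 8 with a library left out. In stroma 1 became 4 without the filter, 2 with up to 40% mitochondrial UMIs and 0 to 7 with a library left out. In mural cells 0 of 12 became 1 of 14 with the looser gate (COL5A1, where 86 of 5331 genes passed). In endothelium 0 of 5 became 1 of 22 without the filter (COL13A1, where 60 of 13278 genes passed), and the count also changed without replicate 4. In Sertoli cells the count of 0 changed only with replicate 3 left out. The 5 of 18 collagens whose age change differed between classes (236 of 6165 genes) became 2 of 18 by DESeq2 (202 of 6165). Their count also changed without replicate 1, 2 or 3. Calls over all genes ranged from 0 to 3028 about 354 (age, whole libraries), 0 to 1410 about 84 (stroma), 4 to 86 about 53 (mural), 9 to 444 about 15 (endothelial) and 0 to 1108 about 17 (Sertoli). Between classes they ranged from 1280 to 3538 about 2755, 762 to 1533 about 1148, 1664 to 3782 about 2754 and 2285 to 5229 about 3718, in the same order. TMM moved all genes by 0.33 and 0.79 (log2) between ages in stroma and Sertoli cells, 0.14 and 0.15 in mural and endothelial cells, and by 0.28 and -0.48 between classes for endothelial and Sertoli cells. Of collagens lower in the cattle-yak, 2 of 19 became 4 of 24 with 20 UMIs as the minimum in whole libraries. For this comparison the shares of all genes under the alternatives were not determined. In mural cells 2 became 1 with the stricter gate and 1 with up to 40% mitochondrial UMIs. In endothelium 5 became 3 with the stricter gate and 2 with the stricter cell filter, where only 3 and 2 members reached the minimum of UMIs and all of them were lower.

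No paired analysis was possible because the groups compared share fewer than 2 replicate numbers. The stricter gate left fewer than 50 cells in a library for age in stroma, mural and endothelial cells, and the stricter cell filter for age in all 4 classes and for mural cells of the mature yak, so these were not run. Leaving out 1 of 2 libraries assumes that the lone sample varies like the others.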
